A study of Mus musculus with 12 samples.

Results

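The genes described here are those that display peptides to T cells and those that make the peptides ready for display. They were chosen by name, as every row of both tables whose symbol starts with H2- (the mouse major histocompatibility complex, MHC) together with 13 other genes of the pathway. This gave 57 of the 46983 gene symbols in each table, 44 of them named H2-. A gene was tested in a fraction where its mean over the 6 libraries was 10 or more, which held for 21 of the 57 in CM and 26 in NonCM, the 21 being among the 26. On each side of that limit stood H2-K2 at 10.8 and H2-M3 at 4.68 in CM, and Nlrc5 at 13.4 and H2-T10 at 8.63 in NonCM.

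Class I molecules are made of a heavy chain and the light chain B2m, sit on nearly all nucleated cells and show peptides cut from the cell's own proteins. These peptides are cut by the proteasome, carried into the endoplasmic reticulum by Tap1 and Tap2, trimmed by Erap1 and loaded with the help of tapasin (Tapbp), and Nlrc5 is the transcriptional coactivator of this route. Class II molecules show peptides from engulfed proteins, are held by the invariant chain Cd74 until loading, depend on the coactivator Ciita and are found mainly on macrophages, dendritic cells and B cells. In the heart, resident macrophages are a main class II cell, while class I is shared by endothelial cells, fibroblasts and leukocytes and is low on muscle cells.

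Bulk RNA was sequenced from mouse hearts (strain label BL6/C57) as 12 libraries in 4 groups of 3. Cardiomyocytes (CM) and the interstitial cells (NonCM) of the same hearts were collected apart, from control mice labelled MCM/+ or from mice labelled MCM/+ Wls fl/fl, in which Wls, the carrier that Wnt proteins need for secretion, can be deleted. MCM commonly stands for MerCreMer, a Cre that tamoxifen activates, and the labels do not state its promoter. All mice, controls included, had 3 tamoxifen doses from postnatal day 1 to 3 and a myocardial infarction on day 2, and tissue was taken 2 weeks after surgery, although the labels call the cells adult. The series text names 3 hearts per condition, and whether the libraries of a group came from separate hearts is not otherwise stated, so the tests measure the spread between libraries.

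Levels are normalized reads (reads scaled to a common size within each fraction's table), log2 changes are Wls fl/fl minus control on the log2(value + 1) scale unless another tool is named, and adjusted p-values are by Benjamini-Hochberg over all genes tested, with calls made under 0.05. The targeted gene followed the labels in CM. Wls was 243, 201 and 210 normalized reads in control CM libraries and 91.6, 57.3 and 93.9 in Wls fl/fl ones (log2 change -1.45, SE 0.17, limma adjusted p = 0.00389), while in NonCM it was 427, 374 and 407 against 356, 323 and 316 (log2 change -0.28, adjusted p = 0.0831). Esr1, the gene whose hormone-binding domain MerCreMer carries, did not follow a label that gives MCM/+ to both genotypes. It was 14.3, 33.3 and 19.5 in the CM libraries labelled control and 1686, 1298 and 1596 in Wls fl/fl, and 88.7, 33.6 and 36.9 against 797, 659 and 714 in NonCM. A difference in that allele and the loss of Wls cannot be told apart in any comparison of the genotypes below. Depth ran from 5171769 to 9775856 recovered reads in CM and from 1160146 to 10281214 in NonCM, where control replicate 1 is the shallowest and 1 of its reads is worth 5.54 normalized reads. In all 4 groups replicate 3 lay no farther from a weighted mean of replicates 1 and 2 than counting noise (mean squared residual over counting variance 0.992 to 1.04, against 1.11 to 1.67 for replicates 1 and 2), so results are also given without it. The NonCM fraction held much cardiomyocyte RNA, since 6 cardiomyocyte markers took 4.65% of its control reads and 7.04% of those of CM. The CM fraction held endothelial RNA, since 5 endothelial markers took 0.0766% of its control reads and 0.103% of those of NonCM. In bulk RNA fewer cells of a type and less RNA per cell cannot be told apart.

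The upstream sequences of 5 genes are shown because they set the class I genes that the NonCM comparison turns on beside a class II gene. Each is the 250 bases before the RefSeq start in GRCm38.p6, written 5′ to 3′ on the gene's strand, with capitals marking matches to the motifs searched. They are H2-K1 at chr17:34000348-34000597 (minus strand), H2-D1 at chr17:35262844-35263093 (plus), B2m at chr2:122147437-122147686 (plus), Tap1 at chr17:34187306-34187555 (plus) and H2-Aa at chr17:34287824-34288073 (minus).
H2-K1: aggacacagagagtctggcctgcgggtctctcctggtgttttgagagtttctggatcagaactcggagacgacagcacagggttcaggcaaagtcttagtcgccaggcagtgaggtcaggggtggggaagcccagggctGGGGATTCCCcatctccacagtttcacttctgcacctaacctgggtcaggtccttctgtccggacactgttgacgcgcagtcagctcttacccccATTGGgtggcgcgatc
H2-D1: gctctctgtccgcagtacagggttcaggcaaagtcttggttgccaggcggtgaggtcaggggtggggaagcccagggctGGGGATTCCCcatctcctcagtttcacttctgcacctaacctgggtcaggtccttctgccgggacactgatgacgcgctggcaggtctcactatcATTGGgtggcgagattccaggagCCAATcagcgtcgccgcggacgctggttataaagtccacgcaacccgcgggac
B2m: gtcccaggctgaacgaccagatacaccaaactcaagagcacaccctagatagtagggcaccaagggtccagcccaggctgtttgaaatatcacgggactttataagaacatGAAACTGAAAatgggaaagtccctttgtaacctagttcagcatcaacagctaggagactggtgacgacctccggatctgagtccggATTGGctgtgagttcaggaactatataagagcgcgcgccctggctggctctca
Tap1: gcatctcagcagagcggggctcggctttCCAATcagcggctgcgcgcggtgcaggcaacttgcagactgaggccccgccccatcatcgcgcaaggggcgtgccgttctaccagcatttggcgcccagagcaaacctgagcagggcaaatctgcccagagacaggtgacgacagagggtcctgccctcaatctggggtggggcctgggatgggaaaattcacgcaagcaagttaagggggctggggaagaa
H2-Aa: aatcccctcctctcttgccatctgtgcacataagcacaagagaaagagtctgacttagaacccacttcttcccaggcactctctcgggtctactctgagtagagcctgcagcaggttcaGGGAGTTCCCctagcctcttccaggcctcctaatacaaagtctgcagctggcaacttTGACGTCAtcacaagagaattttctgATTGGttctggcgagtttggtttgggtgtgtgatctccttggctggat

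The 2 classical heavy chain genes carried the same 10-letter match to the kappa B type motif (GGG, 2 free letters, TTCCC), at -111 to -102 from the start of H2-K1 and at -171 to -162 from that of H2-D1. H2-Aa held another match to it, at -131 to -122, and the cyclic AMP response type motif TGACGTCA at -74 to -67. B2m held the interferon response type motif (GAAA, 2 free letters, GAAA) at -139 to -130. The letters CCAAT or their complement occurred in all 5 sequences. Of the 57 genes, 40 had an entry in the RefSeq promoter table, with windows of 300 bases (250 before and 50 after the start), and both strands were searched. The kappa B type was in 7 of the 40 (H2-Aa, H2-D1, H2-K1, H2-Oa, H2-Q4, H2-Q6 and H2-Q7) and in 1.66% of all 27025 promoters. The interferon response type was in 5 (B2m, Erap1, H2-T22, H2-T23 and Psme1) and in 3.49% of all, the gamma-activated type TTCNNNGAA in 4 and in 8.47%, TGACGTCA in 1 and in 1.88%, TGACGCA in 0 and in 2.19%, and CCAAT in 31 and in 37.9%. No motif listed contains another, and H2 genes are near copies of one another, so their matches are not independent. Only exact matches to these letters were counted, and near matches stay in lower case. A gene without a match, such as H2-K1 or H2-D1 for the interferon response type or B2m for the kappa B type, may still hold a variant of the site. The windows of Tap1 and its neighbour Psmb9 overlap by 275 bases, as the 2 genes face away from each other.

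Of the 57 genes, 49 lie on chromosome 17, and all matched 1 gene of the GENCODE M21 annotation of GRCm38. H2-K1 (17, 33996017 to 34000347) and H2-D1 (17, 35262730 to 35267499) stand 1.26 Mb apart on either side of the class II and class III genes. B2m lies elsewhere (2, 122147686 to 122153083), as does Nlrc5 (8, 94434356 to 94527272). By normalized reads per kilobase of exon, B2m was the most abundant gene of the set in NonCM control libraries (1019 ± 55.6, SD, n = 3), followed by Cd74 (729 ± 48.0) and H2-D1 (336 ± 17.9). Tapbp (175 ± 8.38), H2-Eb1 (173 ± 15.5) and H2-K1 (172 ± 4.41) came next and did not differ beyond their spread. In CM control libraries the order on the same per-kilobase scale was B2m (306 ± 20.6), the proteasome activator subunit Psme1 (174 ± 16.6), H2-D1 (123 ± 9.08), Tapbp (111 ± 3.67) and H2-K1 (72.8 ± 2.53), with Cd74 at 29.1 ± 2.76.

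The question of where the pathway is expressed was taken up in control hearts, with recovered whole reads of both fractions in a single edgeR fit. Class II genes were the most unequal, Cd74 being 19.5-fold higher in NonCM (log2 difference 4.29), H2-Ab1 18.0-fold (4.17), H2-Aa 16.1-fold (4.01) and H2-Eb1 16.0-fold (4.0). Class I genes were less unequal, with B2m 2.67-fold higher (log2 difference 1.42), H2-D1 2.14-fold (1.10) and H2-K1 1.89-fold (0.92). Of the 26 tested genes 21 were higher in NonCM, while 28.9% of all 13395 genes were called higher there. Psme1 was the 1 gene called lower (log2 difference -0.52), with 28.2% of all genes called lower.

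Of the peptide supply genes Tap1 and Psmb9 lay within the range of these class I genes and the others below it. Tap1 was 2.15-fold higher in NonCM (log2 difference 1.10), Psmb9 2.28-fold (1.19) and Psmb8 1.62-fold (0.70), the last 2 being catalytic subunits of the immunoproteasome. Tap2 (0.37) and Tapbp (0.35) were also called higher, whereas Erap1 (-0.10), Psmb10 (-0.29, adjusted p = 0.0774) and Psme2 (-0.32, adjusted p = 0.0604) were not called either way by edgeR. All 5 genes of the list of constitutive proteasome and activators were called lower in NonCM. They were Psmb5, Psmb6 and Psmb7, the subunits that the immunoproteasome replaces, and the activators Psme3 and Psme4. The coactivators differed too, Ciita by 5.12-fold (log2 difference 2.36) and Nlrc5 by 2.60-fold (1.38). Both were under the level limit in CM (means 4.34 and 3.38) and entered the fit through NonCM only, which favours a higher NonCM level. The call of Psmb8 was lost without NonCM control replicate 3, that of Nlrc5 without CM control replicate 1 or NonCM control replicate 2 or 3, and that of Tap2 when any of 8 single libraries was left out. Without replicate 3 of all groups 15 of the 26 genes were called higher. Beside these, all 12 leukocyte and macrophage markers were higher in NonCM (median log2 difference 4.22), as were all 5 fibroblast markers (median 2.84). Of 5 endothelial markers 2 were called higher there and 0 lower, with a median of 0.048. The part of these cell types in the differences between fractions was not tested.

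**Figure D1:**
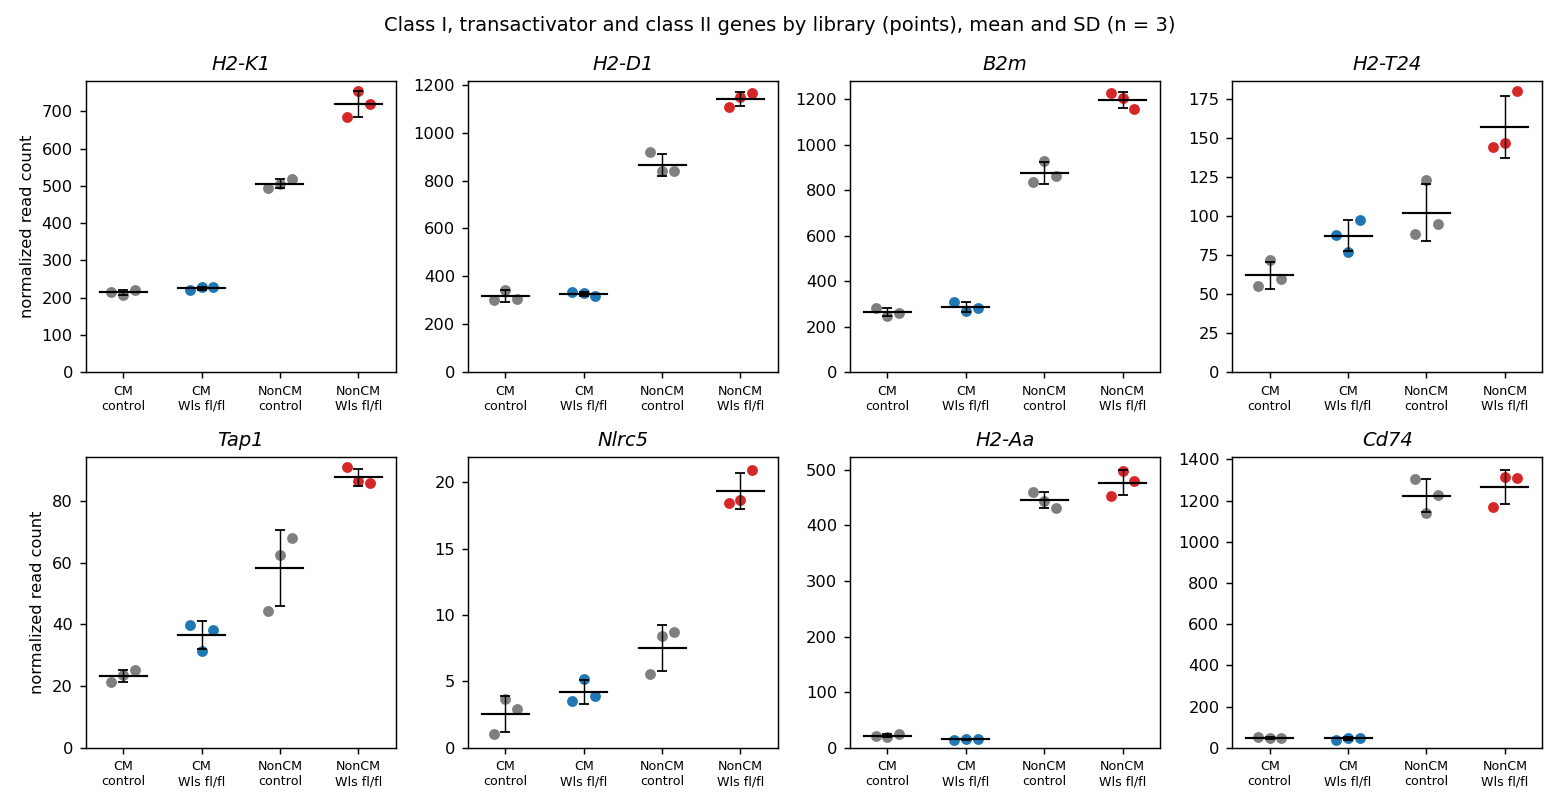
Normalized read count (y axis, from 0) of 8 genes in each library (points) of the 4 groups, with the mean (line) and SD (bars, n = 3). H2-K1, H2-D1 and B2m lie higher in Wls fl/fl than in control NonCM libraries and overlap in CM, while H2-Aa and Cd74 are high in NonCM in both genotypes; levels of CM and NonCM were normalized apart.

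The comparison of genotypes asked what the Wls fl/fl label goes with in each fraction. In NonCM of Wls fl/fl hearts the classical class I heavy chains H2-K1 and H2-D1, the light chain B2m and the class I-like gene H2-T24 were higher, by 1.32- to 1.54-fold, and no gene of the set was called lower. The class II chains, Cd74, Ciita, the immunoproteasome and the proteasome activator did not pass the test in either direction. Thus 4 of 26 tested genes were called higher by limma at an adjusted p under 0.05, against 2.47% of all 13271 genes higher and 4.51% in either direction (328 higher and 270 lower; with upper-quartile scaling 266 and 371, the 4 genes of the set still among the 266). None of the 26 was called lower, against 2.03% of all (6 of the 26 had an unadjusted p under 0.05, all higher in Wls fl/fl, where 19.3% of all genes did, and edgeR and limma-voom also called none lower). By edgeR 6 of the 26 were called higher, against 5.73% of all genes. The median log2 change over the 26 was 0.09 and that over all genes tested 0.02.

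H2-K1 was at 493, 506 and 519 normalized reads in control NonCM and at 684, 754 and 720 in Wls fl/fl. The lowest Wls fl/fl library thus stood well above the highest control, and the log2 change was 0.51 (SE 0.06, limma adjusted p = 0.00322). H2-D1 was at 920, 842 and 839 in controls and at 1107, 1151 and 1167 in Wls fl/fl (log2 change 0.40, SE 0.06, adjusted p = 0.00732). Its groups did not overlap either. B2m, the chain common to all class I molecules, was at 837, 930 and 863 against 1227, 1205 and 1159 (log2 change 0.45, SE 0.06, adjusted p = 0.00426), again with no overlap. The sum of the 2 heavy chains over B2m was 1.57 ± 0.12 (SD, n = 3) in control and 1.56 ± 0.087 in Wls fl/fl NonCM, a difference smaller than the spread between libraries.

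In the authors' deposited table the adjusted p was 6.41e-06 for B2m, 1.3e-05 for H2-K1, 1.57e-05 for H2-D1 and 0.0482 for H2-T24. H2-K1 and B2m were still called whichever single library was left out from the limma fit. H2-D1 lost its call when control replicate 3 (adjusted p = 0.0522) was left out, and likewise for replicates 2 (0.0590) and 3 (0.0808) of Wls fl/fl. With replicate 3 of both genotypes removed, none of the 4 genes was called by limma, with log2 changes of 0.52 for H2-K1 (adjusted p = 0.235), 0.46 for B2m (0.244), 0.36 for H2-D1 (0.380) and 0.48 for H2-T24 (0.518). In that fit 0 of all 13271 genes were called (1233 had an unadjusted p under 0.05, 6 of them in the set), and edgeR on the same libraries called 27 genes and none of the set (adjusted p = 0.0594 for H2-K1, 0.0926 for B2m and 0.157 for H2-D1; 5 of the set had an unadjusted p under 0.05).

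Among the class I-like genes outside the classical pair, 6 of 29 were tested in NonCM and 1 was called. H2-T24 (17, 36005695 to 36020560, 0.738 Mb beyond H2-D1) was at 88.7, 123 and 94.9 in controls and at 144, 147 and 180 in Wls fl/fl (log2 change 0.62, SE 0.15, adjusted p = 0.0472). Its groups did not overlap, but the call was close to the threshold and was lost with TMM scaling (adjusted p = 0.0532), when control replicate 3 was dropped (0.149) and when 1 of the 3 Wls fl/fl libraries was dropped (0.10, 0.156 and 0.235 for replicates 1, 2 and 3). The other 5 had log2 changes from -0.29 (H2-K2) to 1.52 (H2-M3), none called by limma. H2-M3, which presents formylated peptides, was at 0, 22.1 and 15.9 in controls and at 24.2, 23.3 and 14.2 in Wls fl/fl. Its 0 fell in the shallowest library, and the groups overlapped. Without that library, control replicate 1, the log2 change of H2-M3 was 0.087 by limma, and with all libraries it was 0.24 by edgeR and 0.36 by DESeq2, so that the size of 1.52 rests on that 0 and on the added 1. H2-T23, the ligand of an inhibitory receptor of natural killer cells, was at 144, 117 and 131 against 123, 109 and 118 (log2 change -0.16, adjusted p = 0.483). The H2-Q and H2-T genes are near copies of one another, so reads may have been divided among them, and how shared reads were counted is not given in the sources used here.

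Of the peptide transport and loading genes, Tap1 and Tapbp had every Wls fl/fl library above every control, and neither was called. Tap1 was at 44.3, 62.5 and 68.1 in controls and at 90.9, 86.5 and 85.9 in Wls fl/fl (log2 change 0.60, SE 0.17, limma adjusted p = 0.0852). Its lowest control value came from 8 reads in the shallowest library, and without that library Tap1 was called (log2 change 0.42, adjusted p = 0.0324). It was also called by edgeR (log2 change 0.46, adjusted p = 0.0315) and by limma-voom (adjusted p = 0.0347). Tapbp was at 599, 646 and 655 against 717, 668 and 696 (log2 change 0.13, adjusted p = 0.275). Tap2, the partner of Tap1 in the transporter, was at 83.2, 74.7 and 97.0 against 94.7, 89.8 and 102 (log2 change 0.17, adjusted p = 0.526), and these groups overlapped. Erap1, which trims peptides in the endoplasmic reticulum, was at 322, 317 and 345 against 340, 356 and 336 (log2 change 0.07, adjusted p = 0.615).

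No proteasome gene of the set was called in NonCM. Psmb8 was at 44.3, 45.8 and 50.7 in controls and at 54.1, 51.9 and 72.5 in Wls fl/fl (log2 change 0.32, adjusted p = 0.359), the groups being narrowly apart with replicate 3 of Wls fl/fl the highest library. Psmb9 was at 22.2, 26.7 and 34.0 against 24.8, 20.6 and 29.1 (log2 change -0.14, adjusted p = 0.803). Psmb10 was at 122, 111 and 112 against 127, 125 and 112 (log2 change 0.08, adjusted p = 0.729). The groups of Psmb9 and Psmb10 overlapped, as did those of the activator subunits. Psme1 was at 394, 304 and 357 against 329, 319 and 307 (log2 change -0.14, adjusted p = 0.490) and Psme2 at 177, 108 and 136 against 140, 127 and 143 (log2 change -0.01, adjusted p = 0.971).

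The 2 coactivators had different values. Nlrc5, which acts on class I genes, was at 5.54, 8.39 and 8.69 normalized reads in control NonCM and at 18.4, 18.6 and 20.9 in Wls fl/fl, with no overlap (log2 change 1.27, SE 0.32, limma adjusted p = 0.0587). These are few reads (1, 11 and 12 in the controls), and limma on log2 values did not call it, while edgeR (log2 change 1.19, adjusted p = 0.0144), limma-voom (adjusted p = 0.0154), a pseudocount of 5 (adjusted p = 0.0491) and the fit without control replicate 1 (log2 change 1.09, adjusted p = 0.0137) did. Without replicate 3 of both genotypes its log2 change was 1.32 by limma (adjusted p = 0.514). Ciita, which acts on class II genes, was at 33.3, 24.4 and 35.5 against 33.7, 40.6 and 29.1 (log2 change 0.15, SE 0.22, adjusted p = 0.760), and its groups overlapped.

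None of the class II genes tested in NonCM was called. Cd74 was at 1303, 1142 and 1226 in controls and at 1169, 1316 and 1309 in Wls fl/fl (log2 change 0.05, SE 0.07, adjusted p = 0.750). H2-Aa, the alpha chain of the I-A molecule, was at 460, 444 and 432 against 453, 498 and 480 (log2 change 0.10, SE 0.06, adjusted p = 0.444). Its partner beta chain H2-Ab1 was at 360, 350 and 341 against 336, 407 and 368 (log2 change 0.08, SE 0.08, adjusted p = 0.654). All 3 genes had overlapping groups. H2-Eb1, the beta chain of I-E, was at 305, 338 and 365 against 310, 375 and 354 (log2 change 0.04, SE 0.10, adjusted p = 0.847), also overlapping. Its partner alpha chain is a nonfunctional gene in the C57BL/6 strain, and the row H2-Ea-ps reached at most 0.636 normalized reads, which is 1 read. H2-DMa, which removes the invariant chain's remnant from class II molecules, was at 55.4, 57.2 and 57.9 against 62.3, 53.2 and 50.1 (log2 change -0.05, adjusted p = 0.892), and H2-DMb1 had a log2 change of -0.08.

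**Figure D2:**
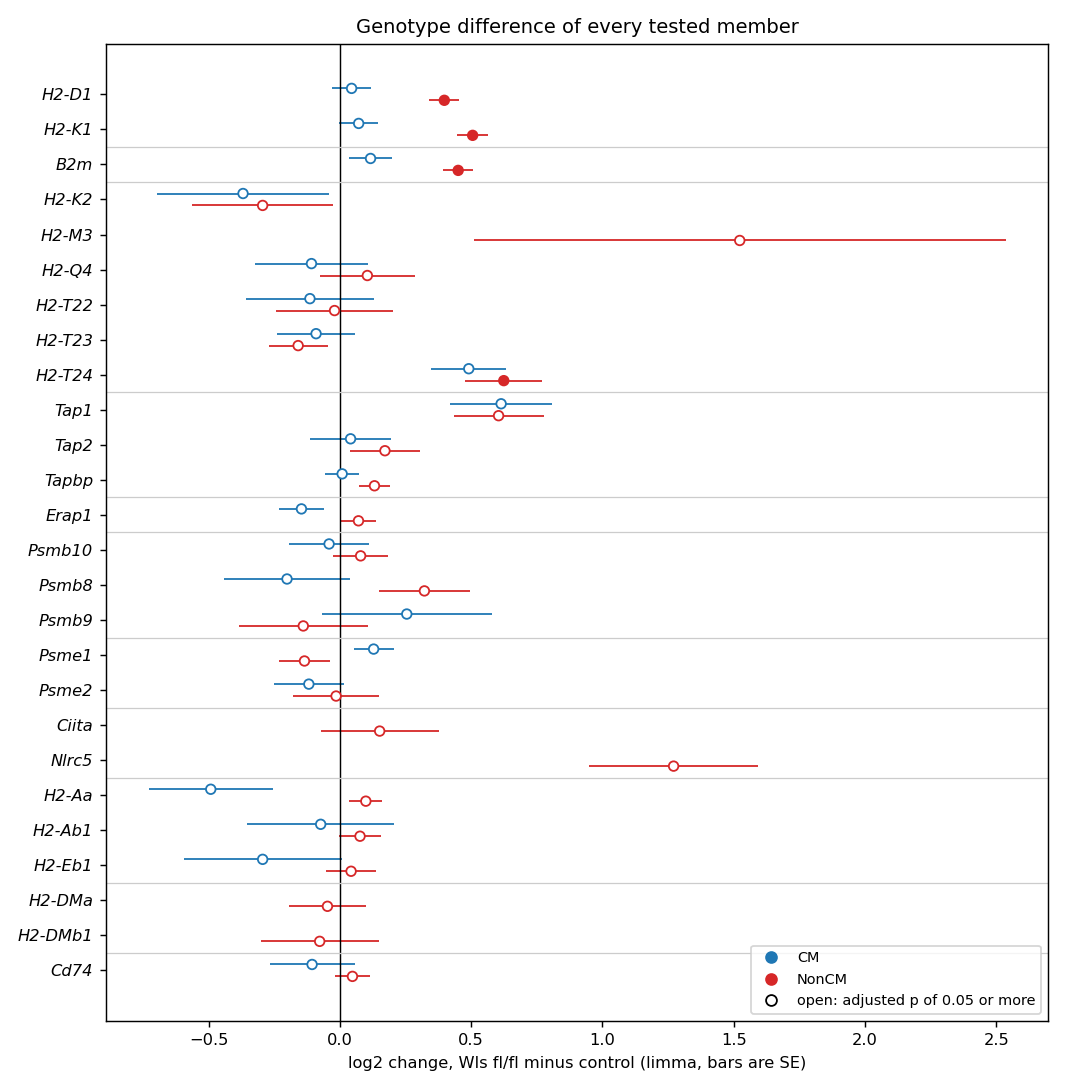
Log2 change from control to Wls fl/fl (x axis, limma on log2(value + 1), bars are SE) of every tested gene, grouped by role, in CM (blue) and NonCM (red); filled points have an adjusted p under 0.05. The filled points are H2-K1, H2-D1, B2m and H2-T24 in NonCM, and the class II genes at the bottom lie near 0 in NonCM.

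Class I and class II genes could be set against each other within each library, where depth and scaling drop out. The sum of H2-K1 and H2-D1 over the sum of H2-Aa, H2-Ab1 and H2-Eb1 was 1.26, 1.19 and 1.19 in control NonCM and 1.63, 1.49 and 1.57 in Wls fl/fl, without overlap. In CM the same ratio was 10.1, 11.4 and 8.60 against 14.7, 11.4 and 12.95, and the groups overlapped. The ratios were not tested, and neither was a difference between the classes in their change. The summed level of H2-K1, H2-D1 and B2m was 2251, 2277 and 2220 normalized reads in control NonCM and 3019, 3110 and 3046 in Wls fl/fl, or 1.36 times the control mean. That of the 3 class II chains and Cd74 was 2428, 2273 and 2364 against 2269, 2596 and 2510, or 1.04 times.

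Markers of several cell types moved with genotype in NonCM, where limma called 2.47% of all genes higher and 2.03% lower. Of 12 leukocyte and macrophage markers 3 were called higher in Wls fl/fl (Lyz2, Cd68 and Ptprc), and their sum ranged from 7905 to 10157 in controls and from 11057 to 11984 in Wls fl/fl, or 1.25 times. Of 5 fibroblast markers 3 were called higher, and their sum was 1.41 times the control mean (30772 to 34564 against 44212 to 47404). The cardiomyocyte marker sum was 0.812 times (5 of 6 called lower) and the endothelial sum 0.905 times (1 of 5, Emcn, called lower). The dendritic cell marker sum was 1.02 times, with 0 of 3 tested markers called by limma. Most of that sum was Zbtb46, at 168 to 255 in controls and 190 to 210 in Wls fl/fl, whose difference between fractions in control hearts was not called (log2 0.056). Itgax, the integrin chain CD11c, was at 11.1, 12.2 and 7.97 in controls and at 15.9, 27.3 and 23.9 in Wls fl/fl, without overlap. Its log2 change was 1.02 by limma (adjusted p = 0.118, not called) and 1.13 by edgeR (adjusted p = 0.0325, called), with 2 reads in control replicate 1. Of the 3 tested dendritic cell markers only Itgax had a positive limma change, and the median of the 3 was -0.016. Clec9a, the remaining tested marker, had a log2 change of -0.13 in the authors' deposited table. The sum of 5 B cell markers ranged from 11.1 to 26.1 in controls and from 22.3 to 49.9 in Wls fl/fl, and that of 8 T and natural killer cell markers from 5.54 to 33.3 and from 22.4 to 36.9, with Klrb1c at 0 in all 6 libraries and Gzmb at 0 in all controls. H2-K1 and H2-D1 together were 0.179, 0.133 and 0.145 of the leukocyte and macrophage sum in controls and 0.149, 0.172 and 0.167 in Wls fl/fl, so that on this scale the groups overlapped. That overlap came from control replicate 1 (0.179), the shallowest library, while the other controls (0.133 and 0.145) lay below every Wls fl/fl library. These ratios were not tested. The 3 class II chains were 0.142, 0.111 and 0.121 of the leukocyte and macrophage sum against 0.0917, 0.116 and 0.106, overlapping as well. The part of these cell types in the class I difference was not tested.

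**Figure D3:**
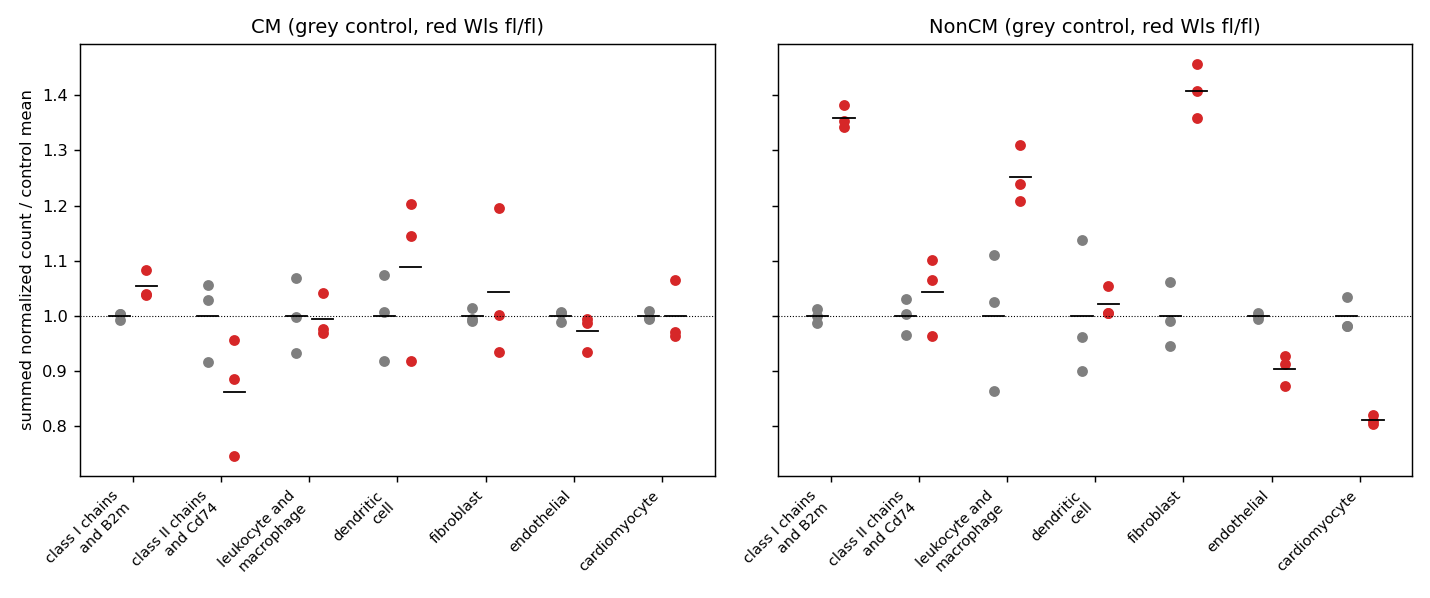
Summed normalized count of each gene or marker list divided by its control mean (y axis), per library (points: grey control, red Wls fl/fl) with the group mean (line), in CM (left) and NonCM (right). In NonCM class I with B2m (1.36), fibroblast (1.41) and leukocyte and macrophage (1.25) sums lie above their controls, class II with Cd74 (1.04) overlaps them, and the cardiomyocyte (0.812) and endothelial (0.905) sums lie below. In CM the class I with B2m sum (1.05) also lies above its controls, and the other sums overlap theirs.

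In CM no gene of the set was called in either direction (0 of 21; 0.067% of all 11944 genes were called higher, 0.0251% lower and 0.0921% in either direction by limma). An unadjusted p under 0.05 was reached by 2 of the 21 with limma and by 3 with edgeR, whose adjusted calls were also 0, where 8.74% of all genes reached it by limma. The median log2 change was -0.07 over the 21 and 0.00 over all genes. The genes of smallest p were H2-T24 and Tap1, and both were higher in all Wls fl/fl libraries. H2-T24 was at 55.2, 71.6 and 59.4 in controls and at 88.1, 77.1 and 97.1 in Wls fl/fl (log2 change 0.49, SE 0.14, limma adjusted p = 0.399). Tap1 was at 21.5, 23.4 and 25.3 against 39.9, 31.3 and 38.2 (log2 change 0.61, SE 0.19, adjusted p = 0.424).

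The classical class I genes were not called in CM, where their control levels were below those of NonCM. H2-K1 was at 215, 206 and 221 in controls and at 220, 227 and 227 in Wls fl/fl (log2 change 0.07, SE 0.08, adjusted p = 0.823). H2-D1 was at 301, 344 and 307 against 332, 330 and 318 (log2 change 0.04, SE 0.07, adjusted p = 0.899). B2m was at 282, 247 and 261 against 309, 267 and 281 (log2 change 0.12, SE 0.08, adjusted p = 0.718). Each of the 3 had overlapping groups. Their summed level was 798, 797 and 788 in controls and 861, 824 and 826 in Wls fl/fl, without overlap. That was 1.05 times the control mean and was not tested. Class II chains were few in CM, and all 3 had negative changes. H2-Aa was at 21.5, 18.5 and 24.3 against 14.1, 15.6 and 14.9, without overlap (log2 change -0.49, SE 0.24, adjusted p = 0.589). H2-Ab1 was at 16.3, 11.1 and 17.5 against 14.1, 15.6 and 12.3 (log2 change -0.07, adjusted p = 0.960) and H2-Eb1 at 13.3, 18.5 and 19.5 against 9.40, 17.7 and 14.9 (log2 change -0.29, adjusted p = 0.815). Cd74 was at 54.2, 45.7 and 46.7 against 38.8, 49.0 and 48.5 (log2 change -0.11, adjusted p = 0.893), so the groups of these last 3 overlapped.

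The peptide supply genes in CM had small changes apart from Tap1. Tapbp was at 408, 386 and 411 against 401, 389 and 423 (log2 change 0.01, adjusted p = 0.982) and Tap2 at 44.96, 53.1 and 60.3 against 51.7, 52.1 and 58.3 (log2 change 0.04, adjusted p = 0.960). Erap1 was at 294, 280 and 269 against 242, 237 and 285 (log2 change -0.15, adjusted p = 0.667). These groups overlapped. The immunoproteasome genes were low: Psmb8 was at 25.5, 17.3 and 26.3 against 17.6, 21.9 and 19.4 (log2 change -0.20, adjusted p = 0.853). Psmb9 was at 10.2, 7.40 and 12.6 against 14.1, 9.38 and 12.9 (0.25, adjusted p = 0.864). Psmb10 was at 99.1, 114 and 115 against 81.1, 126 and 116 (-0.04, adjusted p = 0.959). None of the 3 separated the genotypes. Psme1 was at 400, 342 and 410 against 410, 417 and 428 (log2 change 0.13, adjusted p = 0.672), and Psme2 at 145, 131 and 105 against 128, 103 and 118 (-0.12, adjusted p = 0.840). The other tested class I-like genes, H2-K2, H2-Q4, H2-T22 and H2-T23, had log2 changes from -0.37 to -0.09.

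Counting only genes whose libraries did not overlap, 8 of 26 in NonCM had every Wls fl/fl library above every control (B2m, H2-D1, H2-K1, H2-T24, Nlrc5, Psmb8, Tap1 and Tapbp), where 13.9% of all genes did, and 0 of 26 the reverse, where 12.6% did. In CM 3 of 21 lay above (H2-T24, Psme1 and Tap1), where 7.97% of all genes did, and 1 of 21 below (H2-Aa), where 7.05% did. Of the 26 genes tested in NonCM 7 were class II chains, their invariant chain, exchange factors or Ciita, none of which is among the 8, and no test compared the classes.

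Whether the change between genotypes differed between fractions was tested as the interaction in the edgeR fit of all 12 libraries. Of the 26 genes 2 were called, both with the larger change in NonCM, where 0.336% of all 13395 genes were called in that direction and 1.44% in either. The change of H2-K1 in NonCM exceeded that in CM by 0.42 on the log2 scale (edgeR adjusted p = 0.0348) and that of H2-D1 by 0.37 (adjusted p = 0.0458). In the same test 4 of 6 cardiomyocyte markers were called with a lower change in NonCM than in CM (median difference -0.32) and 1 of 5 fibroblast markers with a higher one (median 0.43), while 0 of 12 leukocyte and macrophage markers were called (median 0.28), and the part of these cell types was not tested. For B2m the difference was 0.31 (adjusted p = 0.10) and for H2-Aa 0.64 (adjusted p = 0.238), and neither was called. Tap1 (-0.18) and H2-T24 (0.02) had changes of like size in both fractions, and their differences were not past the threshold. The 2 calls are near the threshold. Both stayed without replicate 1 of NonCM control or of NonCM Wls fl/fl, and 1 stayed without CM control replicate 2. Leaving out any other single library left 0 of them. Without replicate 3 of all groups both had an edgeR adjusted p of 0.717. The fractions came from the same hearts per the series text, which this fit does not use.

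**Figure D4:**
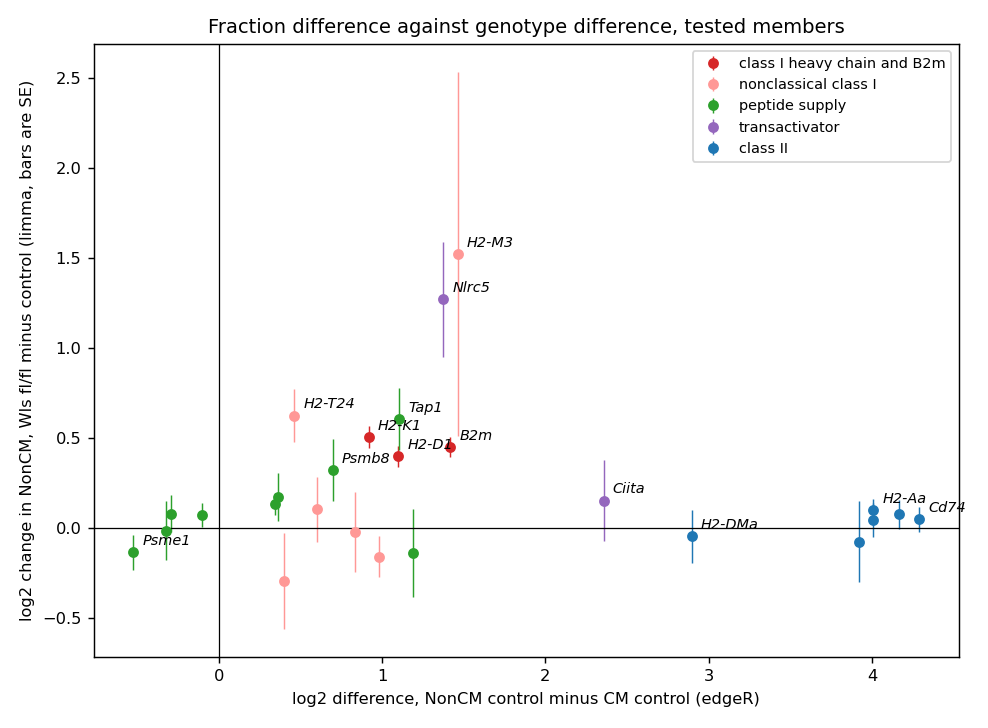
Log2 difference between NonCM and CM control libraries (x axis, edgeR) against the log2 change from control to Wls fl/fl in NonCM (y axis, limma, bars are SE) for the 26 tested genes, coloured by role. Class II genes lie far right and near 0 on the y axis, while H2-K1, H2-D1, B2m and Tap1 lie between 0.92 and 1.42 on the x axis and between 0.40 and 0.60 on the y axis; the axes share the control NonCM libraries, so no relation is drawn from them.

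Genes that work beside the set were read from 7 lists of 45 genes. In CM 38 were tested and 0 were called by limma, those of smallest p being Pomp (the proteasome assembly factor, log2 change 0.20), Psme4 (-0.11), Canx (-0.09) and Fcgrt (0.16). In NonCM 41 were tested, 3 were called higher and 1 lower. Of all genes, limma called 2.47% higher and 2.03% lower in NonCM, and 0.0921% in either direction in CM. Ctss, the cathepsin that cleaves the invariant chain, was at 272, 357 and 331 in controls and at 446, 430 and 442 in Wls fl/fl (log2 change 0.47, SE 0.10, adjusted p = 0.0322). Its groups did not overlap, and Ctss was 19.6-fold higher in control NonCM than in control CM. Calr, the endoplasmic reticulum chaperone calreticulin that holds class I chains during loading, was at 2145, 2033 and 2163 against 2514, 2497 and 2400 (log2 change 0.22, SE 0.05, adjusted p = 0.0322). Creb1, a factor that binds the cyclic AMP response type motif, was at 405, 432 and 432 against 506, 513 and 522 (log2 change 0.28, SE 0.06, adjusted p = 0.0332). With upper-quartile scaling Calr (log2 change 0.18, adjusted p = 0.120) and Creb1 (0.23, adjusted p = 0.0556) were not called. DESeq2 did not call Creb1 (adjusted p = 0.0919). All 3 calls were lost when control replicate 3 or any 1 of the Wls fl/fl libraries was left out (adjusted p from 0.0867 to 0.198), and that of Calr also without control replicate 2 (adjusted p = 0.0556).

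The interferon gamma route, the best known inducer of the pathway, had mixed values in NonCM. Ifngr2, the signalling chain of its receptor, fell from 1181, 1086 and 1123 in controls to 969, 907 and 890 in Wls fl/fl (log2 change -0.29, SE 0.06, limma adjusted p = 0.0252), a call lost when control replicate 3 (adjusted p = 0.0996) or the second (0.136) or the third (0.170) Wls fl/fl library was left out. Irf1, a transcription factor of the interferon response, was at 216, 176 and 178 against 177, 226 and 212 (log2 change 0.11), and the groups overlapped. Ifng itself had 1 read in the 6 NonCM libraries and 1 in the 6 CM libraries. Per list in NonCM, limma called 1 of 6 genes of class I loading and chaperones, 1 of 7 of the class II transcription complex and 1 of 6 of class II processing higher and 1 of 8 of the interferon gamma pathway lower. Over all genes in NonCM, limma called 2.47% higher and 2.03% lower and gave 19.3% an unadjusted p under 0.05. It called 0 of 5 constitutive proteasome and activator genes (2 at an unadjusted p under 0.05), 0 of 4 class I-like genes outside H2 (1) and 0 of 5 costimulation genes (0). Other tools called more of these: Psme4, a proteasome activator, was lower by edgeR (log2 change -0.29, adjusted p = 0.00851) and by DESeq2 (-0.28, adjusted p = 0.00571), and Psmb6, a constitutive subunit, by edgeR (-0.22, adjusted p = 0.0416) but not by DESeq2. The loading chaperone Pdia3 was higher by edgeR (0.28, adjusted p = 0.0111) and by DESeq2 (0.28, adjusted p = 0.00796), and Fcgrt, the neonatal Fc receptor, by edgeR (0.23, adjusted p = 0.0216) but not by DESeq2. No costimulation gene was called by edgeR, limma-voom or DESeq2.

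The genes under the level limit were 36 of the 57 in CM and 31 in NonCM. Their highest value in any library was 9.20 in CM and 17.2 (H2-T10) in NonCM. No read was found in any library for 6 of the 57, in CM for 12 and in NonCM for 6. Most are nonclassical class I genes (29 in the set, of which 5 were tested in CM and 6 in NonCM), and the class II exchange genes H2-Oa, H2-Ob and H2-DMb2 were under the limit in both fractions. The row H2-Ke6 is named for its place in the region and is not an MHC chain.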

How the data were processed

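Per the submitters' processing notes, STAR and DESeq2 were used with build mm10; no versions, annotation, counting tool or strand setting are stated. Each deposited table (1 per fraction) holds for every library a signal value, here called a normalized read: the authors scaled gene counts with 1 size factor per library. Beside these, per the file headers, stand the authors' DESeq2 log2 fold changes, p-values and adjusted p-values, a standard error and a test score. Whole reads were recovered from the steps of the values (100% whole, tolerance 0.01 reads).

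Genotypes were compared per fraction with limma 3.58.1 (R 4.3.3, eBayes with trend) on log2(value + 1), over genes with a mean of 10 or more, two-sided, with Benjamini-Hochberg adjustment over all genes tested at 0.05. Fold changes are on this scale, where the added 1 shrinks the change of low genes, while a library at 0 can enlarge it. Fractions and the interaction were tested with edgeR 4.0.16 (quasi-likelihood, TMM) on recovered reads, since the 2 tables were normalized apart. Alternatives were edgeR, limma-voom, DESeq2 1.42.0, TMM and upper-quartile scaling, pseudocounts of 0.5 and 5, other level limits, a looser threshold and left-out libraries. The fits were also run on simulated data in which every library was drawn independently. That run does not cover the closeness of replicate 3 to replicates 1 and 2.

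By a rule, values in every library are given for called genes and for the main genes of each step. Outside that rule, such values are also given for Wls, Esr1, H2-M3, H2-T23, Irf1 and Itgax. H2-Q5, H2-Q6 and H2-Q7 were chosen after their values were seen. The genes, lists, markers and motifs were chosen with earlier results of these data known. Exon lengths and positions are from GENCODE M21, and promoters from RefSeq. The result of 1 listed gene is not reported here.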

Additional observations from a re-analysis of the deposited data

Results flagged for a closer look

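The change of H2-K1 between genotypes was larger in NonCM than in CM by 0.42 on the log2 scale (edgeR interaction, adjusted p = 0.0348), with every Wls fl/fl library above every control in NonCM (3 against 3) and overlapping groups in CM. The change of H2-D1 was larger in NonCM by 0.37 (adjusted p = 0.0458), with the same pattern over libraries. Both differences kept their sign under all 15 alternatives run. H2-K1 was called under 5 of them and H2-D1 under 4.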

How the results depend on the processing

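For NonCM, members called higher numbered 2 to 6 when single libraries were left out (2 without control replicate 3 or Wls fl/fl replicate 2 or 3), 6 by edgeR, limma-voom or a threshold of 0.1, 5 with a pseudocount of 5, 3 with TMM scaling and 0 without replicate 3 of both genotypes by limma or by edgeR (the latter alternative was chosen after seeing the data). All genes called in NonCM were 598 by limma, 1446 by edgeR, 1477 by limma-voom, 1120 at a threshold of 0.1 and 73 to 1621 without single libraries. In CM, where 11 of all genes were called, no alternative called a gene of the set, and all-gene counts were 21 at 0.1, 41 with no level limit, 25 by DESeq2, 17 by limma-voom, 5 to 18 without single libraries and 2 without replicate 3 by either tool. The interaction called 193 genes, 652 with the replicate block and 0 to 283 without single libraries, and of the set 0 to 2 without single libraries and 0 without replicate 3 of all groups. In the difference between fractions, genes called lower were 2 with the replicate block and 1 to 2 without single libraries.

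The labels do not pair CM and NonCM libraries, and the replicate numbers follow accession order. Same-numbered libraries correlated by 0.036 to 0.304 in their deviations over 8427 genes, and each of the 6 correlated best with its own number, which is a hint from the data only. With the replicate block the interaction was 0.42 for H2-K1 (adjusted p = 0.0120) and 0.37 for H2-D1 (adjusted p = 0.0133), 2 genes of the set were called, and between fractions 19 were higher, Tap2 (0.31) and Nlrc5 (1.13) losing their call and Psmb10 (-0.32) gaining one.

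Signs were followed for all members tested in the genotype and fraction comparisons. For the interaction they were followed only for H2-K1, H2-D1, B2m, Tap1 and H2-Aa. Sign changes touched 16 uncalled changes, the largest of 0.15 in size, in 44 values, leaving out fits with no adjusted p. The cause was not tested. Without single libraries the log2 changes ranged, in CM, from -0.068 to 0.14 for Tap2, -0.025 to 0.036 for Tapbp, -0.17 to 0.15 for Psmb10, -0.16 to 0.0017 for Cd74, -0.26 to 0.044 for H2-Ab1, -0.31 to 0.00057 for H2-T22 and -0.25 to 0.065 for H2-Q4. In NonCM they ranged from -0.28 to 0.016 for Psmb9, -0.19 to 0.17 for Psme2, -0.0076 to 0.26 for Ciita, -0.0011 to 0.10 for Cd74, -0.025 to 0.12 for H2-Eb1, -0.14 to 0.019 for H2-DMa, -0.18 to 0.077 for H2-DMb1, -0.26 to 0.21 for H2-T22 and -0.050 to 0.27 for H2-Q4. Without replicate 3 of both genotypes Tapbp (CM) was -0.0082 by limma and -0.014 by edgeR, H2-Ab1 (CM) 0.13 and 0.093, H2-T22 (CM) 0.087 and 0.11, H2-DMa (NonCM) 0.032 and 0.012, and by edgeR Psme2 (NonCM) was 0.12, H2-T22 (NonCM) 0.24 and H2-DMb1 (NonCM) 0.044. With all libraries edgeR gave 0.000659 for Psmb10 CM, 0.095 for Psme2 NonCM, -0.0097 for H2-Eb1 NonCM, 0.11 for H2-T22 NonCM and 0.050 for H2-DMb1 NonCM, limma-voom gave Psme2 0.12, H2-Eb1 -0.018, H2-T22 0.14 and H2-DMb1 0.039, DESeq2 gave Psme2 0.058, and upper-quartile scaling gave H2-Eb1 -0.00427. Low counts limit Nlrc5, H2-M3 and most class I-like genes, above all in NonCM control replicate 1.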

Other observations

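Among class I-like genes under the level limit in NonCM, 3 neighbours in the H2-Q group had more reads in Wls fl/fl libraries; they were chosen after their values were seen. H2-Q6 was at 0, 1.53 and 3.62 normalized reads in controls (0, 2 and 5 reads) and at 10.8, 16.0 and 10.5 in Wls fl/fl (17, 24 and 14 reads), with a log2 change of 2.54 in a limma fit with no level limit (adjusted p = 0.0763). H2-Q7 was at 0, 5.34 and 5.79 against 6.36, 16.0 and 14.2 (log2 change 1.82, adjusted p = 0.338), and H2-Q5 at 0, 0 and 1.45 against 3.82, 4.66 and 2.24 (log2 change 1.72, adjusted p = 0.201). None of the 3 was called, and the 0 in control replicate 1 comes from a library where 1 read is worth 5.54. H2-Q6 and H2-Q7 are near-identical copies, so the division of reads between them is uncertain. In CM H2-Q6 had 0, 1 and 0 reads in controls and 2, 5 and 0 in Wls fl/fl.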
